A study of Homo sapiens with 8 samples.

Results

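Amino acid transporter genes were followed in LX-2 cells, an immortalized line of human hepatic stellate cells that behaves as myofibroblastic stellate cells (MF-HSC). The 10 genes were chosen by name, as carriers of neutral and cationic amino acids or as the chain that brings such carriers to the cell surface, and were SLC3A2, SLC7A1, SLC7A5, SLC7A6, SLC1A4, SLC1A5, SLC38A1, SLC38A2, SLC43A1 and SLC6A9. All 10 were found among the 16796 genes measured. Messenger RNA was sequenced in 4 control libraries, from cells not given OSMI-1. It was also sequenced in 4 OGTi libraries, from cells given 50 µM OSMI-1 for 24 h. Both groups were the same cell line grown in DMEM with 5% fetal bovine serum. OSMI-1 inhibits OGT, the enzyme that attaches O-GlcNAc to proteins, so the comparison asks how transporter mRNA stood when that enzyme was inhibited. Libraries with the same replicate number were treated as pairs.

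Amino acids cross the plasma membrane through families of carriers with overlapping substrates. SLC3A2 is a single-pass glycoprotein, the CD98 heavy chain, which binds a light chain of the SLC7 family and carries it to the cell surface, and the light chain does the transport. Light chains such as SLC7A5 are exchangers that bring in leucine and other large neutral amino acids against glutamine leaving the cell, while carriers such as SLC1A5 and SLC38A2 bring in glutamine and small neutral amino acids. Leucine and glutamine entry is coupled to mTORC1 activity. When amino acids run short, the kinase EIF2AK4 and the transcription factor ATF4 raise transporter genes through a C/EBP-ATF response element (CARE). Glutamine also feeds the hexosamine pathway, which makes the sugar donor used by OGT.

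The libraries held 24166756 to 28201215 counts in control and 25027759 to 27638478 in OGTi. Each value is given as a normalized count, which is the count divided by the DESeq2 size factor of its library, and changes are log2 fold changes of OGTi over control ± standard error from the paired DESeq2 fit across all genes. A gene was called at a q-value of 0.05 or lower. OGT itself was lower in OGTi at −0.45 ± 0.09 and OGA, which removes O-GlcNAc, at −1.80 ± 0.09. The 10 stellate cell markers checked were all measured, and 9 were called, against 46.6% of all genes with a q-value. Of the 9, 8 were lower in OGTi, from COL3A1 at −2.50 ± 0.11 to THY1 at −0.28 ± 0.08. TIMP1 was called higher at 0.47 ± 0.10, and VIM was not called (−0.09 ± 0.07). Of 15 markers of other liver cells, ALB, TTR, CYP3A4, EPCAM and CD3E were not among the genes measured. APOA1 and KRT19 stayed between 0 and 3.01 and the leukocyte marker PTPRC between 0 and 11.5 normalized counts. Of the 10 that were measured, 8 had a q-value and 4 were called. That is 50.0%, near the 46.6% of all genes with a q-value. CD68, a lysosomal protein that marks macrophages but is made by many cells, was higher at 1.25 ± 0.08. The hepatocyte enzyme CYP2E1 was higher at 2.3 ± 0.29. Endothelial CDH5 was lower at −3.31 ± 0.62 and the bile duct keratin KRT7 at −1.05 ± 0.26. CYP2E1 averaged 41.4 and 200 normalized counts in control and OGTi, KRT7 111 and 53.8, and CDH5 37.3 and 3.86. The part of these shifts in the transporter values was not tested.

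Of the 10 transporter genes, 9 received a q-value and 8 were called, 4 higher and 4 lower in OGTi. The background was high: 46.6% of the 14028 genes with a q-value were called, 22.7% higher and 24.0% lower, and among genes averaging 1000 normalized counts or more the share was 58.7%. The 4 higher were SLC3A2, SLC1A5, SLC38A1 and SLC1A4, and the 4 lower were SLC7A6, SLC38A2, SLC7A1 and SLC7A5. SLC43A1 was not called and SLC6A9 had too few counts for a q-value. The median log2 fold change of the 9 with a q-value was −0.01, against 0.00 over all genes with one. SLC3A2 was the 1 called member that changed at least 2-fold, against 1200 such called genes among the 14028 with a q-value. The control and OGTi libraries did not overlap for 5 members, against 38.0% of all 14895 genes tested.

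**Figure D1:**
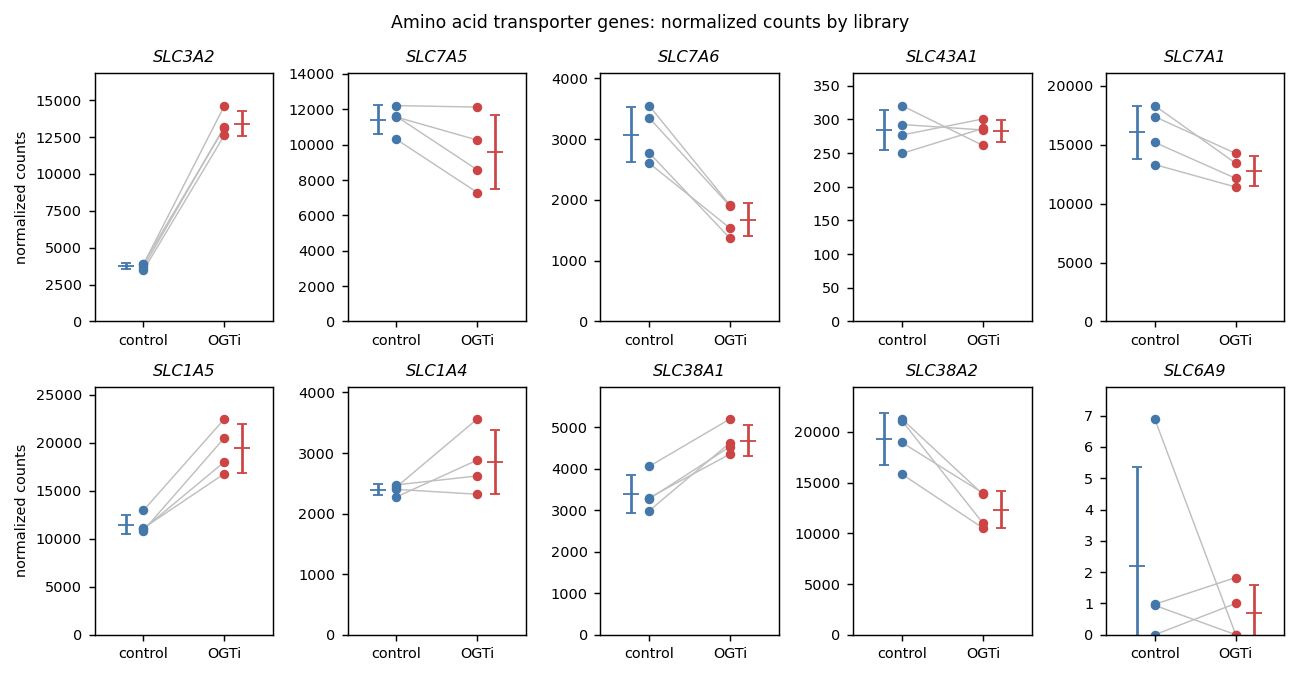
Normalized counts (vertical axes, each starting at 0) of the 10 transporter genes in the 4 control and 4 OGTi libraries, with grey lines joining libraries of the same replicate number and side bars giving the mean ± SD. SLC3A2 rises from 3464 to 3922 in control to 12636 to 14630 in OGTi, SLC7A6 and SLC38A2 fall without overlap, and SLC6A9 stays at 6.90 or below.

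SLC3A2, the heavy chain, lies on the plus strand of chromosome 11 at 62856004 to 62888880 (hg38). Its normalized counts in replicates 1 to 4 were 3680, 3866, 3464 and 3922 in control and 13205, 14630, 12636 and 13136 in OGTi. Every OGTi library was more than 3 times every control library by these values, and the spread within each group was small beside the gap. The mean rose from 3733 ± 207 to 13402 ± 857 (SD, n = 4), a log2 fold change of 1.84 ± 0.07 or 3.59-fold (DESeq2 q = 3.76e-167). The 4 pairs gave paired log2 ratios of 1.84, 1.92, 1.87 and 1.74. By Wald statistic SLC3A2 ranked 2 among all genes called higher, and by log2 fold change it ranked 27 among the 2800 of them that averaged 100 normalized counts or more.

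The light chain SLC7A5, known as LAT1, exchanges leucine and other large neutral amino acids. It lies on the minus strand of chromosome 16 at 87830023 to 87869507. Normalized counts were 10307, 12210, 11566 and 11607 in control and 7294, 12128, 10262 and 8579 in OGTi. The groups overlapped because OGTi replicate 2 was as high as the controls, and its pair moved by only −0.01 on the log2 scale. The other 3 pairs fell, and the fitted change was −0.28 ± 0.08 (DESeq2 q = 0.00318). Without the replicate block the call was lost (DESeq2 q = 0.108, edgeR q = 0.127), and without replicate 4 the change was −0.23 with a DESeq2 q of 0.0711. SLC7A5 was also the 1 member with a fractional expected count in all 8 libraries, which marks reads shared with other sequences, so its level is less certain than the others.

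SLC7A6, the light chain y+LAT2 that exchanges cationic for neutral amino acids, showed the largest fall of the 10 genes among those with a q-value. It lies on the plus strand of chromosome 16 at 68264516 to 68301823. Normalized counts were 2606, 2777, 3351 and 3551 in control and 1533, 1365, 1897 and 1911 in OGTi. The highest OGTi library stayed under the lowest control library. The group means were 3071 ± 451 and 1676 ± 272, and all 4 pairs fell (−0.88 ± 0.08 on the log2 scale, DESeq2 q = 1.02e-26). Its exons share 3372 bases with SLC7A6OS on the opposite strand. SLC7A6OS changed by −0.05 ± 0.12 (DESeq2 q = 0.778), and the reads were counted with their strand.

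The light chains SLC7A5 and SLC7A6 were called lower while the heavy chain was called higher. Taking the paired log2 ratio of each light chain minus that of SLC3A2, SLC7A5 lay at −2.12 ± 0.18 (SD, n = 4 pairs) and SLC7A6 at −2.72 ± 0.15. Both differences were negative in 4 of 4 pairs, but SLC3A2 itself rose by 1.74 to 1.92 in every pair. Any gene that rose by less therefore gives a negative difference. The paired ratios of SLC7A5 alone ran from −0.50 to −0.01 and those of SLC7A6 from −1.02 to −0.77. The cystine carrier SLC7A11, a further light chain outside the 10, was higher in 3 of 4 pairs. Per kilobase of merged exons, SLC7A11 averaged 330 ± 119 and SLC7A6 221 ± 35.8 in OGTi, with overlapping libraries. In OGTi replicate 1 SLC7A11 was the lower of the 2, at 184 against 202. The difference of SLC7A11 from SLC3A2 lay at −1.46 ± 0.46. Normalized counts of SLC7A11 were 2025, 2149, 2594 and 2480 in control and 1772, 2746, 3984 and 4240 in OGTi, with OGTi replicate 1 the lowest of all 8. Its change was 0.39 ± 0.21 (DESeq2 q = 0.117), and it was called without replicate 1 (0.58, DESeq2 q = 1.57e-08) and by edgeR with the block (q = 0.00547). The light chains SLC7A7 and SLC7A8 were far less abundant, at no more than 5.02 and 37.5 normalized counts in any library. SLC7A8 was called higher, as was SLC3A2, and its paired difference from SLC3A2 was −0.65 ± 0.99 with 1 of 4 pairs above 0.

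To set the chains on a common scale, normalized counts were divided by the length of the merged exons in kilobases (kb). Per kb, SLC3A2 averaged 584 ± 32.4 in control and 2097 ± 134 in OGTi, while the summed light chains SLC7A5, SLC7A6, SLC7A7, SLC7A8 and SLC7A11 averaged 3045 ± 217 and 2565 ± 478. The ratio of heavy to summed light chain mRNA was 0.212, 0.192, 0.173 and 0.194 in control and 1.07, 0.759, 0.700 and 0.823 in OGTi. All OGTi libraries lay above all controls, and OGTi replicate 1, where SLC7A5 and SLC7A11 were lowest, had the highest ratio. The mean was 0.192 ± 0.016 in control and 0.839 ± 0.165 in OGTi. With the longest annotated transcript as the length the means were 0.407 ± 0.034 and 1.79 ± 0.35, so the absolute ratio depends on the length while the separation of the groups does not. This ratio was chosen after the values were seen and is given with no test.

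**Figure D2:**
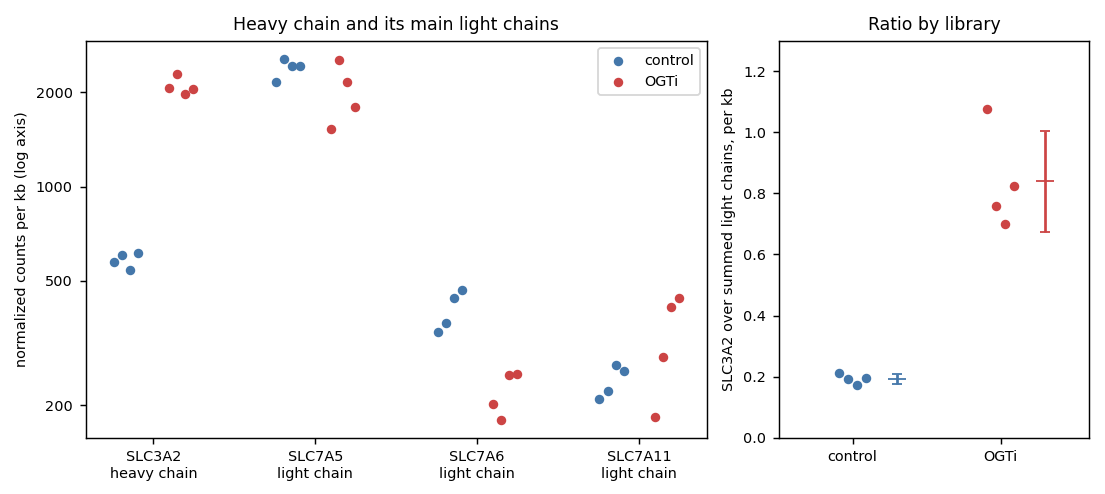
Left, normalized counts per kb of merged exons (log axis) of SLC3A2 and the light chains SLC7A5, SLC7A6 and SLC7A11 in each control and OGTi library. Right, the ratio of SLC3A2 to the summed light chains per kb (axis from 0) in each library with the mean ± SD: it is 0.173 to 0.212 in control and 0.700 to 1.07 in OGTi.

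SLC43A1, known as LAT3, carries large neutral amino acids without a heavy chain. It lies on the minus strand of chromosome 11 at 57484534 to 57515780. Normalized counts were 292, 320, 249 and 277 in control and 284, 261, 286 and 301 in OGTi. The groups overlapped throughout, and 2 pairs were higher and 2 lower. The change was −0.01 ± 0.15 (DESeq2 q = 0.982), with a 95% interval from −0.30 to 0.29, so a change within these bounds remains possible.

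SLC7A1, the cationic carrier CAT1 for arginine and lysine, belongs to the SLC7 family but works without SLC3A2. It lies on the minus strand of chromosome 13 at 29509414 to 29595688. Normalized counts were 13310, 15193, 17372 and 18311 in control and 11403, 12137, 14252 and 13412 in OGTi. The groups overlapped at the lowest control library, yet every pair fell. The mean went from 16046 ± 2244 to 12801 ± 1275 (log2 change −0.32 ± 0.07, DESeq2 q = 6.86e-06).

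The SLC1 members exchange small neutral amino acids with sodium. SLC1A5, known as ASCT2, is a main entry route of glutamine and lies on the minus strand of chromosome 19 at 46774883 to 46788594. Its normalized counts were 11107, 12950, 10847 and 11007 in control and 16789, 22486, 20514 and 18015 in OGTi. All OGTi libraries exceeded all controls, with the highest value of both groups in replicate 2. The mean rose from 11478 ± 987 to 19451 ± 2549, a log2 fold change of 0.76 ± 0.07 or 1.69-fold (DESeq2 q = 6.7e-25).

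SLC1A4, or ASCT1, carries alanine, serine and cysteine and lies on the plus strand of chromosome 2 at 64988477 to 65023865. Normalized counts were 2400, 2438, 2274 and 2474 in control and 2320, 3564, 2884 and 2622 in OGTi. OGTi replicate 2 stood well above the rest, and OGTi replicate 1 lay among the controls. The change of 0.23 ± 0.10 passed the threshold (DESeq2 q = 0.0398) with 3 of 4 pairs higher. The call was lost without replicate 2 (0.13, DESeq2 q = 0.391), replicate 3 (0.19, q = 0.201) or replicate 4 (0.28, q = 0.0542), and without the block in DESeq2 (q = 0.0783) and edgeR (q = 0.0851). The paired log2 ratio of SLC1A5 exceeded that of SLC1A4 in 4 of 4 pairs, by 0.52 ± 0.19 (SD).

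The SLC38 members SLC38A1 and SLC38A2, known as SNAT1 and SNAT2, take up glutamine and alanine with sodium, and they lie side by side on the minus strand of chromosome 12. SLC38A1 spans 46183063 to 46270017 and had normalized counts of 2985, 4055, 3299 and 3271 in control and 4629, 5200, 4355 and 4534 in OGTi. Its groups did not overlap and all 4 pairs rose. The mean went from 3403 ± 458 to 4679 ± 365 (log2 change 0.47 ± 0.07, DESeq2 q = 4.47e-09).

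SLC38A2, which cells raise when amino acids are scarce, spans 46358188 to 46372773. Its normalized counts were 15833, 21107, 21282 and 18958 in control and 10522, 11000, 13846 and 13967 in OGTi. The groups did not overlap here either, but in the opposite direction, and all 4 pairs fell. The mean went from 19295 ± 2538 to 12334 ± 1827 (log2 change −0.65 ± 0.08, DESeq2 q = 2.51e-14). The paired log2 ratio of SLC38A1 exceeded that of its neighbour in 4 of 4 pairs, by 1.11 ± 0.18 (SD). This difference and that between the SLC1 members were taken after the values were seen and carry no test.

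SLC6A9, the glycine transporter GlyT1, lies on the minus strand of chromosome 1 at 43991500 to 44031467. It held 11 counts over all 8 libraries. Normalized counts were 0.974, 0.939, 6.90 and 0 in control and 1.83, 0, 0 and 1.0 in OGTi. No fold change is given at this depth.

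**Figure D3:**
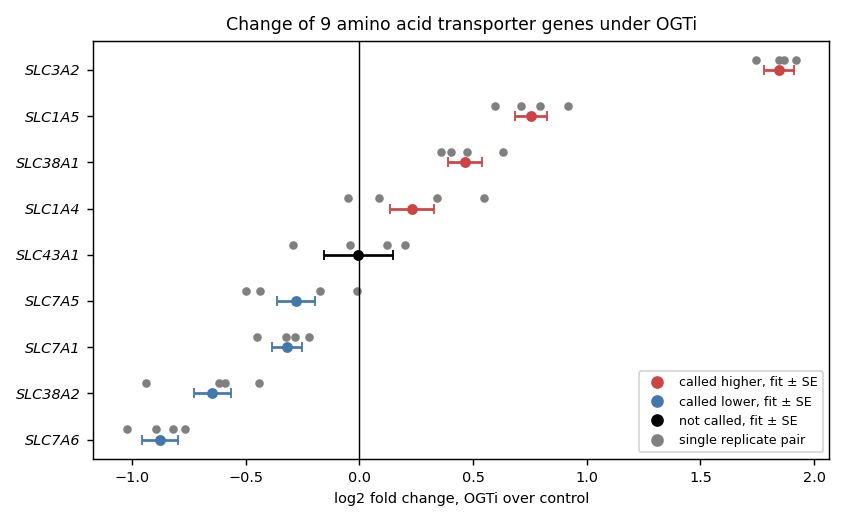
Log2 fold change of OGTi over control (horizontal axis) for the 9 transporter genes with a q-value: coloured points with bars are the DESeq2 estimate ± standard error, and grey points above them are the 4 replicate pairs. SLC3A2 stands apart at 1.84, 3 other genes are called higher, 4 are called lower down to SLC7A6 at −0.88, and the pairs of SLC1A4 and SLC43A1 lie on both sides of 0.

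Per kb of merged exons, the order of mean levels in control was SLC1A5 (3445 ± 296), SLC38A2 (2964 ± 390), SLC7A5 (2398 ± 168), SLC7A1 (2087 ± 292), SLC3A2, SLC7A6 (405 ± 59.5), SLC1A4 (345 ± 12.5), SLC38A1 (340 ± 45.7), SLC43A1 (80.7 ± 8.4) and SLC6A9 (0.42). Each of the first 4 overlapped its neighbour in library values, as did neighbours among SLC7A6, SLC1A4 and SLC38A1, so the order of these neighbours is not resolved. SLC1A5 nevertheless lay above SLC7A5 and SLC7A1, and SLC38A2 above SLC7A1, in every control library. In OGTi the levels ran SLC1A5 (5838 ± 765), SLC3A2, SLC7A5 (2008 ± 440), SLC38A2 (1895 ± 281), SLC7A1 (1665 ± 166), SLC38A1 (467 ± 36.5), SLC1A4 (410 ± 76.4), SLC7A6 (221 ± 35.8), SLC43A1 (80.3) and SLC6A9 (0.13). SLC1A5 then stood clear of all others, and SLC3A2, SLC7A5, SLC38A2 and SLC7A1 overlapped neighbour by neighbour. With the longest transcript as length, SLC3A2 in OGTi lay above its next lower neighbour, SLC38A2, without overlap. SLC3A2 moved from rank 5 to rank 2, with either length.

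The RefSeq promoter windows of the 10 genes (GRCh38.p14) ran from 250 bases before to 50 bases after each start site. They were read for CARE, spelled TGATGNAAN, and for the E-box CACGTG. Both strands were searched, and in the members no match of one motif overlapped a match of the other. CARE letters occurred in 5 of 17 member windows, 1 each for SLC3A2, SLC7A1, SLC1A4, SLC1A5 and SLC38A1, against 3.61% of all 35116 windows and 4.45% of all 27305 genes. The 5 genes comprise the 4 members called higher and SLC7A1, which was called lower. Whether the letters act on these genes was not tested. The CARE letters are in capitals below, each with 10 flanking bases where the window allows, to show how far the matches differ from each other.
SLC3A2: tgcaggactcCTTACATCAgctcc
SLC7A1: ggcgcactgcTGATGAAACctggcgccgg
SLC1A4: gcggctcccgTTTGCATCAtctccagccg
SLC1A5: aggaagtggcTGATGCAAGctgtccaggg
SLC38A1: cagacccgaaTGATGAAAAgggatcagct

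In SLC3A2 and SLC1A4 the match reads on the other strand. Counted from 0 at the start site, the matches begin at 36 in SLC3A2 (chr11:62881725-62881748, plus strand, with flanks), 7 in SLC7A1 (chr13:29595663-29595691, minus strand), −8 in SLC1A4 (chr2:64989381-64989409, plus strand), −97 in SLC1A5 (chr19:46784893-46784921, minus strand) and −4 in SLC38A1 (chr12:46266502-46266530, minus strand). SLC3A2 and SLC1A5 have 3 RefSeq windows each and SLC1A4 and SLC38A1 have 2 each, and only 1 window of each held the letters. The windows of SLC7A5, SLC7A6, SLC38A2, SLC43A1 and SLC6A9 held no CARE letters. Sequence outside the windows, such as introns further in, and other spellings were not searched, so these genes may hold such an element elsewhere.

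The E-box letters, shown for comparison with the members that fell or did not change, occurred in 3 windows, against 7.26% of all windows and 8.77% of all genes. They fall at −130 in SLC7A5 (chr16:87869622-87869647, minus strand), −50 in SLC1A5 (chr19:46787328-46787353, minus strand) and −112 in SLC43A1 (chr11:57515799-57515824, minus strand), so 1 such gene was lower, 1 higher and 1 not called.
SLC7A5: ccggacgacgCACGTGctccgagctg
SLC1A5: cgggagtggtCACGTGgacaggacgg
SLC43A1: gcgggcgagtCACGTGcgcgtgaaac

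Among regulators of the amino acid response, 6 of 16 genes were called higher and 3 lower. That is 56.2% called, against 46.6% of all genes with a q-value and 58.7% of those averaging 1000 normalized counts or more. The median log2 fold change was 0.19 (0.00 over all genes with a q-value). ATF4 had 6791, 7343, 6361 and 6817 normalized counts in control and 9942, 13492, 12267 and 9730 in OGTi, with no overlap (0.72 ± 0.08, DESeq2 q = 2.1e-16). PPP1R15A, which reverses the phosphorylation of eIF2α, rose by 0.98 ± 0.08, and the ATF4 partner CEBPB by 0.84 ± 0.10. The 7 regulators that were not called included TRIB3 (0.39), ATF3 (0.22) and CEBPG (−0.01). EIF2AK4, the kinase that senses uncharged tRNA, was lower at −0.34 ± 0.08, as were ATF5 at −0.29 ± 0.09 and MYC at −0.22 ± 0.09, both with overlapping groups. MYC was not called without the block (DESeq2 q = 0.115, edgeR q = 0.12) or without replicate 1, 2 or 4 (DESeq2 q = 0.0627 to 0.246), and ATF5 was not called without replicate 1 (DESeq2 q = 0.0576).

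Of the glutamine and asparagine enzymes, 5 of 15 with a q-value were called higher and 3 lower, with a median of −0.01. The share called was 53.3%, against 46.6% over all genes. Asparagine synthetase ASNS, an ATF4 target, rose by 1.03 ± 0.11 from 1346 ± 282 to 2745 ± 471 normalized counts. GFPT2, one of the isozymes of the entry step of the hexosamine pathway, rose by 1.04 ± 0.12 and glutamine synthetase GLUL by 0.52 ± 0.10. The hexosamine isozyme GFPT1 was not called (−0.01). Enzymes of nucleotide synthesis that use glutamine as nitrogen donor went both ways. PFAS (−0.79 ± 0.08), CTPS1 (−0.63 ± 0.08) and CTPS2 (−0.38 ± 0.13) were lower, PPAT (0.54) was higher, and CAD (−0.14) and GMPS (−0.05) were not called. CTPS2 was not called without replicate 1 (DESeq2 q = 0.112) or replicate 2 (q = 0.0622).

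Transporters of lysosomes and vesicles were called higher in 8 of 11 genes and lower in 0, with a median of 0.43. The 8 include SLC29A3 (0.87), which is a nucleoside carrier and not an amino acid carrier. The share called was 72.7%, all higher, against 46.6% called and 22.7% called higher over all genes. In DESeq2 the 3 genes without a call had estimates below 0, and 1 of them had an unadjusted p-value under 0.05 (SLC36A4, named after its value was seen), while edgeR with the block called 1 gene of the list lower. The cystine exporter CTNS rose from 973 ± 41.8 to 1743 ± 67.7 normalized counts (0.84 ± 0.08), MFSD12, which brings cysteine into lysosomes, by 0.56 ± 0.08 and SLC66A1, the exporter of cationic amino acids, by 0.63 ± 0.10. Among the genes of amino acid sensing by mTORC1, 10 of 32 were called higher and 7 lower, with a median of 0.13. With 53.1% called, this list was near the share of 46.6% over all genes. The leucine sensor SESN2 rose by 1.01 ± 0.10 and the less abundant SESN3 by 1.88 ± 0.28, and NPRL2 of the inhibitory GATOR1 complex by 0.48 ± 0.10. The mTORC1 inhibitor AKT1S1 (−0.86 ± 0.09), the GATOR2 subunit SEH1L (−0.47 ± 0.09) and the mTORC1 activator RHEB (−0.29 ± 0.07) were lower.

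Other plasma membrane amino acid transporters numbered 33 by name, of which 25 were measured and 16 had a q-value. Of these, 3 were called higher and 2 lower, with a median of 0.18. The share called was 31.2%, under the 46.6% over all genes. The cationic carrier SLC7A2 was called higher at 0.66 ± 0.24, with 74.7 ± 11.7 normalized counts in control and 117 ± 8.4 in OGTi, as were SLC6A17 at 0.40 ± 0.13 and SLC7A8 at 1.23 ± 0.53. Leaving out any single pair ended the call of SLC7A2 (DESeq2 q = 0.0567 to 0.0987), and SLC7A8 lost it without replicate 1, 3 or 4 (DESeq2 q = 0.141 to 0.284). SLC6A17 lost it without the block (DESeq2 q = 0.0937, edgeR q = 0.106) and without replicate 1 or 2 (DESeq2 q = 0.0861 and 0.0881). SLC38A4, a further SLC38 carrier, fell from 551 ± 75.9 to 257 ± 52.8 (−1.11 ± 0.17), and the taurine carrier SLC6A6 was lower at −0.37 ± 0.09. The mitochondrial carriers gave 3 higher and 4 lower of 13, with a median of −0.07 and a share called of 53.8%, near that over all genes. SLC25A29 (0.69 ± 0.10), the glycine carrier SLC25A38 (0.50 ± 0.09) and SFXN2 (0.56 ± 0.16) were higher, and the serine carrier SFXN1 (−0.31 ± 0.08), the aspartate-glutamate exchanger SLC25A13 (−0.31 ± 0.11) and SFXN3 (−0.21 ± 0.09) were lower. SLC25A13 was not called without replicate 1, 3 or 4 (DESeq2 q = 0.0751 to 0.0887), nor SFXN3 without replicate 1, 2 or 4 (DESeq2 q = 0.113 to 0.184) or without the block (DESeq2 q = 0.0837, edgeR q = 0.0911).

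**Figure D4:**
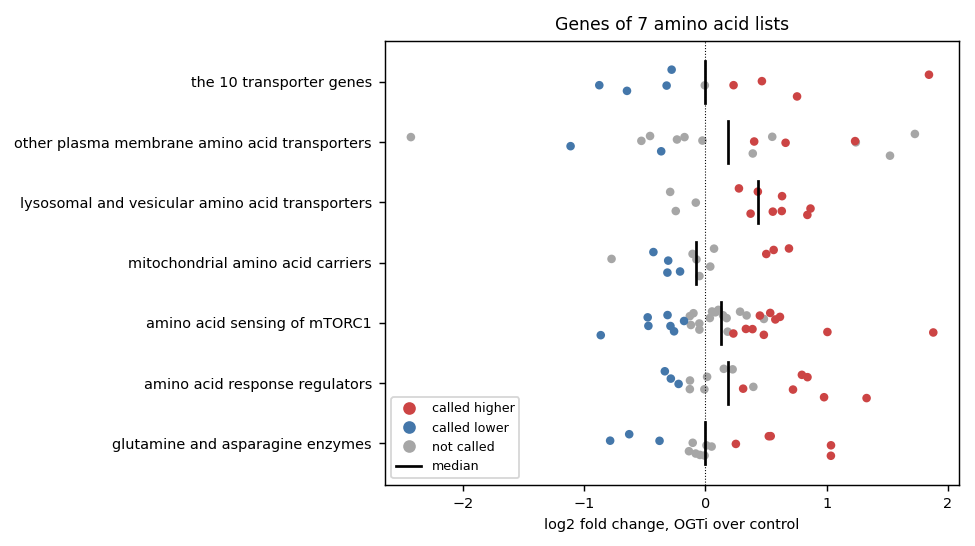
Log2 fold change of OGTi over control (horizontal axis) of the genes with a q-value in the transporter set and in 6 further amino acid lists. Each point is a gene, coloured where called higher or lower, and the black bar is the median of its list. The lysosomal list, which includes the nucleoside carrier SLC29A3, has 8 genes called higher and 0 lower, while the transporter set has 4 of each. Over all genes with a q-value, 22.7% were called higher and 24.0% lower.

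Over the 8 libraries, log2 normalized counts of SLC1A5 had a Pearson r of 0.95 with SLC3A2, SLC38A1 0.89, SLC1A4 0.62, SLC43A1 −0.01, SLC7A5 −0.53, SLC7A1 −0.73, SLC38A2 −0.89 and SLC7A6 −0.93. The libraries fall into the 2 groups, so these values largely carry the difference between the groups and are a description with no test.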

How the data were processed

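The authors aligned the paired, strand-specific reads to hg38 with Bowtie2 2.3.5.1 and estimated gene counts with RSEM 1.3.1 using GENCODE annotation. The deposited expected counts, 1 file per library, are not scaled for depth and were rounded here to whole numbers. A deposited table of the authors' own comparison was not used: it holds log2 fold changes, standard errors, Wald scores and p-values.

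Genes with a total under 10 were left out, and 14895 genes were fitted with the Wald test of DESeq2 1.42.0 (R 4.3.3), with replicate number as a block as in the study's methods, Benjamini-Hochberg q of 0.05 or lower and unshrunken fold changes. Libraries were biological replicates by their labels. The pairing was checked across 11702 genes: deviations of same-numbered libraries from their group means correlated at 0.379, 0.303, 0.138 and 0.269, and control replicate 3 was closer to OGTi replicate 4 (0.272). Alternatives were edgeR 4.0.16, fits without the block, TMM factors, other filters and leaving out each replicate pair. The fits were tested on simulated data. Positions and lengths came from GENCODE release 44, promoters from RefSeq. Named were all 10 transporter genes and up to 3 called genes in each direction with the largest Wald statistic per list. Some further genes of the lists are named beside these. The genes most like SLC3A2 in pattern are not reported here. The members and lists were chosen with earlier results of these data known.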

Additional observations from a re-analysis of the deposited data

Results flagged for a closer look

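A single library stood far from the other 3 of its group in 2 of the 86 groups of 4 libraries examined, where chance alone gives about 4.3. SLC1A5 in control replicate 2 had 12950 normalized counts, with the other 3 control libraries between 10847 and 11107. SLC6A9 in control replicate 3 had 6.90 normalized counts, with the others between 0 and 0.974. All 4 pairs of SLC1A5 rose, and SLC6A9 carried no call.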

How the results depend on the processing

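For the 10 transporter genes, 97 of 107 values under the alternatives kept their direction and their side of the threshold, 8 kept the direction but lost the call, all of them for SLC7A5 or SLC1A4, and 2 changed sign, both for SLC43A1, whose log2 fold change ran from −0.0757 to 0.0927 over the fits that leave out a replicate pair and was above 0 without replicate 1 and without replicate 2. Without the replicate block, 6 members were called in place of 8 with DESeq2 and with edgeR, and without 1 pair 6 to 8. Among the other named genes 356 of 385 values kept their side, 27 lost the call and 2 gained it. Leaving out any pair left 3 called genes of 5 among the other plasma membrane transporters, and 4 to 5 of 7 among the mitochondrial carriers. The longest transcript as length changed the rank of 4 members in control and of 2 in OGTi. The causes were not tested. With 11 counts in all, SLC6A9 was too shallow for a fold change.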

Other observations

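OGTi replicate 2 held the highest normalized count of its group for 5 of the 8 called members, and OGTi replicate 1 the lowest for 5 of 8. OGTi replicate 2 was also the highest of its group for ATF4 (13492), ASNS (3369), DDIT3 (1730), TRIB3 (3308) and PPP1R15A (16003). Control replicate 2 was likewise the highest of its group for ATF4 (7343), ASNS (1681), DDIT3 (677) and TRIB3 (2423), though not for PPP1R15A. Control replicate 1 was the lowest of its group for 5 of 8. These genes were looked at after their values were seen.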
